A study of Mus musculus with 2 samples.

Results

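AP-1 is a transcription factor built from pairs of basic leucine zipper proteins, and 9 genes that encode its subunits or close relatives are described here: Fos, Fosb, Fosl1, Fosl2, Jun, Junb, Jund, Atf3 and Maff. They were chosen by name as a family after values of the same arrays were known, in which Fos stood out, so their levels and differences are a description and carry no test. All 9 have a probe set (a group of short probes for a transcript) annotated to the gene alone, among 18193 genes named this way. At least 1 array reached the floor for 8 of the 9, the exception being Fosb, and for 10267 of all named genes. The floor was a log2 intensity of 5 (intensity 32), below which values were taken as background.

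The samples were mouse urogenital sinus mesenchyme (UGM) cells, the stroma around the fetal epithelium that buds to form the prostate. They came from male C57BL/6 mice labelled day 16. The T+E2 group, 1 array, received testosterone (12 nM) and estradiol-17 beta (120 pM) for 72 h, and the untreated group, also 1 array, had no hormone over the same 72 h. Both were first grown in RPMI 1640 with 5% FBS and Plasmocin at 5 µg/ml, and rinsed. The untreated medium then held 5% charcoal-stripped serum, which is low in steroids, and Plasmocin, while the labels do not state separately which serum the T+E2 medium held. The arrays received biotinylated cDNA made with a NuGEN kit from total RNA. No genetic change is labelled in either group. The labels do not say whether cells of several animals were pooled. The titles carry 24 h where all other labels give 72 h. The descriptions call the untreated cells confluent at the start and the T+E2 cells nearly so, while the growth protocol gives 80% for both. With 1 array each, treatment, culture, starting density and any difference in serum cannot be told apart. No value below has a replicate error, and no p-value was computed. In bulk RNA, a change in RNA per cell and a change in the number of cells of a type cannot be told apart either.

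Jun proteins pair with each other or with Fos proteins, and Fos proteins bind DNA only with a partner. The pairs bind a short element named TRE or the related cyclic AMP response element (CRE), and regulate genes of growth, matrix turnover and stress. Fos, Fosb, Jun, Junb and Atf3 are immediate early genes, which a stimulus such as serum switches on within minutes without new protein synthesis. Their mRNAs are mostly short-lived. Fosl1 and Fosl2 usually follow later, and Jund is present in resting cells.

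Promoter windows are shown because Fos, Jun and Junb were higher together with T+E2, with Atf3 and Maff for contrast, which lay under 2-fold. They are RefSeq windows of GRCm38.p6, from 250 bases before to 50 bases after an annotated start, in the direction of the gene. Capitals mark any letters searched: TRE (TGANTCA), CRE (TGACGTCA), the CRE core TGACG, the variants TGACATCA and TTACNTCA, and TATAAA, each on both strands. The serum response CArG box was searched too. The window of Fosl2, which was also past 2-fold upward, held none of these letters and is not shown. The core lies within the CRE and can overlap the TTACNTCA variant. The core, the 2 variants and TATAAA were added after the windows had been read.
Fos, chr12:85473640-85473939, + strand: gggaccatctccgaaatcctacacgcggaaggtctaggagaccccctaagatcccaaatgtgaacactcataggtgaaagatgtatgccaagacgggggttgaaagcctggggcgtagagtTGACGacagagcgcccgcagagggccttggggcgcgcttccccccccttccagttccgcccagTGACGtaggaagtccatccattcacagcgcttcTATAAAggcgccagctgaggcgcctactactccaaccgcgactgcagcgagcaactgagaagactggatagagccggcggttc
Jun, chr4:95052173-95052472, - strand: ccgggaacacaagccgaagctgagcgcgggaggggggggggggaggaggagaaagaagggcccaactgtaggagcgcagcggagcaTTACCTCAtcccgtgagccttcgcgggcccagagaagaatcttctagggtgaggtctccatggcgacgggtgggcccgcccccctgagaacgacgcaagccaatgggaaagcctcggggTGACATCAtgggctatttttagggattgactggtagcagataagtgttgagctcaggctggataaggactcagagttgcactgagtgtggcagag
Junb, chr8:84978699-84978998, - strand: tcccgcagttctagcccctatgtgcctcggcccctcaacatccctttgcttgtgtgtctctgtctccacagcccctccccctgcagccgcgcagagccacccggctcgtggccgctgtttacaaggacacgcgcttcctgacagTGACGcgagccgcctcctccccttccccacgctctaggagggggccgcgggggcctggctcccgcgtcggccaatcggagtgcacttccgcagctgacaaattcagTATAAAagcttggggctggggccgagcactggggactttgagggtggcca
Atf3, chr1:191183284-191183583, - strand: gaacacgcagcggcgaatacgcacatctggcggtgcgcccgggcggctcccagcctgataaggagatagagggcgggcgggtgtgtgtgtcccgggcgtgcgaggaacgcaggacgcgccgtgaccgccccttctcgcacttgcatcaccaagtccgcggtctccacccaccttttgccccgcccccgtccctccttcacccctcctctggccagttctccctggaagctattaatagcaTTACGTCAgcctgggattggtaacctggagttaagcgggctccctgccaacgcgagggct
Maff, start site 2 of 3, chr15:79347270-79347569, + strand: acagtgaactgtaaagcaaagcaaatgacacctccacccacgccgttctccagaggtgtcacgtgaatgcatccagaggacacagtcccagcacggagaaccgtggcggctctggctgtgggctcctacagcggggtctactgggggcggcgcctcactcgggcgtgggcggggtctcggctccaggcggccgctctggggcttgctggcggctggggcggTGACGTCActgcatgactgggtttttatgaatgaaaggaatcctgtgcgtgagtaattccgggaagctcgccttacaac

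In these windows the Fos promoter held TGACG at -129 to -125 and at -66 to -62, counted from the start site, and TATAAA at -33 to -28. The Jun promoter held TTACCTCA at -164 to -157 and TGACATCA at -45 to -38, both textbook AP-1 and ATF sites of that gene. The Atf3 promoter held TTACGTCA at -10 to -3. The Junb promoter held TGACG at -106 to -102 and TATAAA at 1 to 6, from the annotated start onward. The complete CRE was in 1 of the 10 member windows, at start site 2 of Maff, and in 1.79% of all 32851 promoter windows. Neither TRE (7.81% of all windows) nor the CArG box (1.63%) was in any of the 10 windows. The core TGACG was in 6 of the 10 member windows and in 20.8% of all windows. Those 6 belonged to 5 of the 8 members with a window, namely Atf3, Fos, Fosb, Junb and Maff. The core was chosen after these windows had been read, so nothing is read from the gap to all windows. The share of G and C letters in member windows ran from 46.7% (Jund) to 68.3% (Fosb). Its median over all windows was 52.7%, and the comparison was not matched for it. TGACATCA was in 3.62%, TTACNTCA in 3.30% and TATAAA in 13.6% of all windows. The Fosl2 and Jund windows held none of these letters, and no window was used for Fosl1. These are matches of letters and say nothing of binding, and elements farther upstream lie outside the window.

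The Fos subfamily held the largest difference. Fos had an intensity of 10620 in T+E2 cells and 315 in untreated cells, 33.7-fold higher with T+E2 (log2 difference 5.07). Fos is the founding Fos protein and the usual partner of Jun after a stimulus. It had 1 probe set, far above the floor on both arrays, and at this floor no other measured gene had a difference as large. Fosl2, which encodes the later Fos protein FRA-2, had an intensity of 2600 in T+E2 cells and 1178 in untreated cells, 2.21-fold higher (1.14). Its other probe set was at 4.35 in T+E2 cells and 4.33 in untreated cells, under the floor on both. The Fosl2 difference therefore came from 1 of its 2 probe sets.

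Fosl1, which encodes FRA-1, a Fos protein without the transactivation domain of FOS, was at 103 in T+E2 cells and 63.1 in untreated cells (0.71, 1.63-fold). It lay near the floor in untreated cells and under 2-fold. Its other probe set was at 4.36 in T+E2 cells and 4.34 in untreated cells. Fosb, which encodes a close relative of FOS, was at 4.48 in T+E2 cells and 4.44 in untreated cells. Both Fosb values were background, so its single probe set gave no difference, and whether the transcript was present below that level was not shown.

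**Figure D1:**
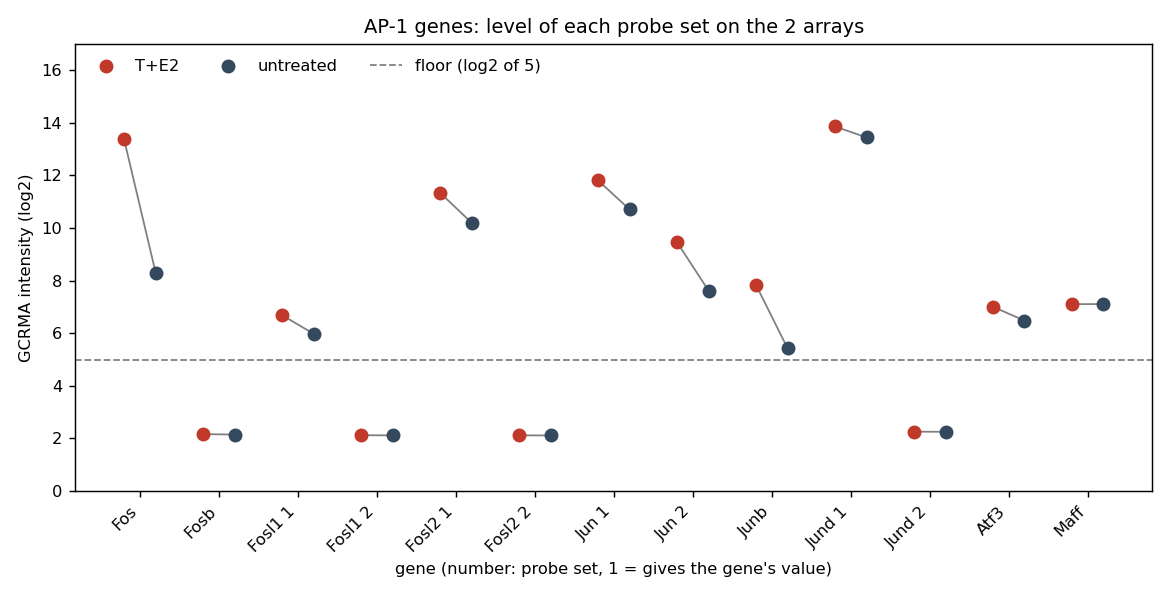
Log2 GCRMA intensity (vertical axis) of all 13 probe sets of the 9 genes, with T+E2 (red) left of untreated (dark) and a grey line joining both values of a probe set. The dashed line is the floor of 5. Fos has the steepest line, 9 probe sets reach the floor, and the others lie near 2 on both arrays. Heights should not be compared between probe sets, which differ in how well they bind.

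In the Jun subfamily both inducible members were at least 2-fold higher. Junb, which encodes a Jun protein that activates transcription less than JUN at many TRE sites, had an intensity of 230 in T+E2 cells and 43.1 in untreated cells. That was 5.33-fold higher (2.41), and 23 of 10267 genes, Junb included, had a difference at least this large. The untreated level, 5.43 on the log2 scale, lay just above the floor, so the size of this difference rested on a low value. With a floor of 6 the difference was 1.84, as a lower bound.

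Jun, which encodes the subunit that pairs with itself as well as with Fos proteins, had an intensity of 3604 in T+E2 cells and 1673 in untreated cells, 2.15-fold higher (1.11). Its other probe set was at 707 in T+E2 cells and 197 in untreated cells, 3.59-fold higher (1.84). Jun was the only member with more than 1 probe set above the floor, and both lay on the same side. Jund, the Jun gene known for steady expression, was at 14898 in T+E2 cells and 11155 in untreated cells (0.42, 1.34-fold), and 26.6% of measured genes had a difference at least this large. Its other probe set, at 4.79 in T+E2 cells and 4.77 in untreated cells, was background.

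Atf3 encodes a stress-induced partner of Jun proteins that often represses as a pair with itself. It was at 129 in T+E2 cells and 89.4 in untreated cells (0.52, 1.44-fold), and 20.2% of measured genes had a difference at least this large. Maff encodes a small Maf protein, which has no transactivation domain and pairs with CNC and Bach factors. It was at 138 on both arrays (-0.01), in the middle of the distribution. Both genes, each with 1 probe set, lay within 2-fold.

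Among the 8 measured members, Fos, Junb, Fosl2 and Jun, 4 in all, passed 2-fold upward with T+E2, 0 passed it downward and 4 stayed within it. Across all 10267 measured genes, 4.96% passed 2-fold upward and 4.01% downward. The family was proposed with this contrast known, so nothing is read from the gap. The members' median was 0.91, against 0.07 over all measured genes. Above 0 lay 7 of the 8 members and 55.8% of all measured genes. The split of 509 higher and 412 lower genes turned to 408 and 520 with centring on the median gene, and to 391 and 517 with the trend with level removed. Averaging the probe sets of each gene gave 315 and 400, and removing the trend with genomic span (gene length from first to last base) gave 303 and 433. In these 4 settings the same 4 members stayed past 2-fold, except Fosl2 under averaging (0.57), which takes in its probe set at background.

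**Figure D2:**
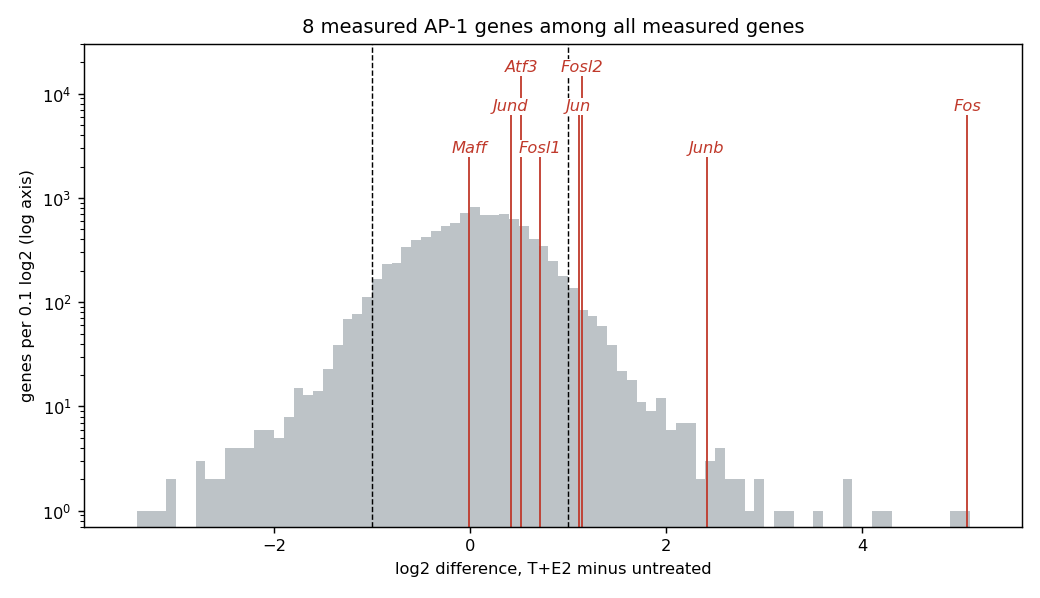
Histogram of the log2 difference, T+E2 minus untreated, of 10267 measured genes in steps of 0.1 (grey, log axis), with the 8 measured AP-1 genes as red lines. Dashed lines mark 2-fold. Fos lies at the far right end at 5.07 and Junb in the upper tail at 2.41, while Maff, Jund, Atf3 and Fosl1 lie under 2-fold.

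Among 10009 genes measured on both arrays, the genes outside the family whose difference lay nearest to that of Fos were Fam107a (4.99, a gap of 0.08), Ier2 (4.25, a gap of 0.82) and Sult1a1 (3.27, a gap of 1.80). Likeness here is only the size of 1 difference between 2 arrays. Fam107a was at 3907 in T+E2 cells and 123 in untreated cells. Ier2, an immediate early gene, was at 1054 in T+E2 cells and 55.4 in untreated cells. Sult1a1, a sulfotransferase gene, was at 752 in T+E2 cells and 78.0 in untreated cells.

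Dimer partners and related basic leucine zipper genes were mostly within 2-fold, as were 9346 of all 10267 measured genes. Of 22 listed, 14 were measured. Among these, 1 gene was past 2-fold upward, 0 downward and 13 within 2-fold (median 0.35). The upward share was 7.14%, against 4.96% of all measured genes. Bach2, which encodes a repressor that pairs with small Maf proteins, was at 304 in T+E2 cells and 123 in untreated cells (2.47-fold higher, with 3 of 3 probe sets on the same side). Removing the trend with genomic span brought its log2 difference to 0.68, under 2-fold. Just under the line, and picked out after their values were seen, were Atf7 (229 in T+E2 cells and 115 in untreated cells, 0.999) and Creb5 (72.8 in T+E2 cells and 36.9 in untreated cells, 0.98), both in the ATF2 branch that pairs with Jun. The list had 3 genes past 2-fold when centred on the hybridization spikes and 2 when probe sets were averaged.

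Several factors that restrain AP-1 or share its sites were measured with small differences, and they too are named after their values were seen. Jdp2, which encodes a repressor that pairs with Jun, was at 4059 in T+E2 cells and 3254 in untreated cells (0.32). Atf4, which encodes a stress factor, was at 13177 in T+E2 cells and 12779 in untreated cells (0.04). Crem, which encodes a CRE-binding activator or repressor, was the 1 measured gene of the list below 0 (-0.30). Batf, Batf2 and Batf3, which encode lymphoid and myeloid partners of Jun, were under the floor on both arrays. In the list of C/EBP genes and Nfil3, 6 of 7 were measured, 1 past 2-fold upward, 0 downward and 5 within it (median 0.43). The upward share, from 1 gene, was 16.7%, against 4.96% of all measured genes. With probe sets averaged, 1 gene of this list passed 2-fold downward. The higher gene was Nfil3, which encodes a bZIP repressor, at 1146 in T+E2 cells and 440 in untreated cells (1.38).

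Genes that act upstream of Fos and Jun mostly lay between. The serum response factor SRF and its ternary complex partners bind the serum response element of Fos. All 7 genes of that list were measured and all 7 lay above 0, none at 2-fold, with a median of 0.57. Of all measured genes, 55.8% lay above 0 and 4.96% passed 2-fold upward. Srf was at 2068 in T+E2 cells and 1062 in untreated cells (0.96), and Mrtfa, which encodes an actin-regulated SRF cofactor, was at 1299 in T+E2 cells and 701 in untreated cells (0.89). Srf was just past 2-fold with centring on the spikes (1.01) and with the span trend removed (1.06). It was at 0.69 with probe sets averaged, and it stayed under 2-fold in the remaining alternatives too. Removing the span trend brought Mrtfa to 0.39.

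Of 28 genes of the MAP kinase cascades that lead to AP-1, 17 were measured and none was 2-fold different in either direction. Their median was 0.14, with 10 above 0 and 7 below. Of all measured genes, 4.96% passed 2-fold upward, 4.01% downward, and 55.8% lay above 0. Map3k5, which encodes the JNK and p38 activator ASK1, was at 4043 in T+E2 cells and 2132 in untreated cells (0.92). Its difference was 0.40 with the span trend removed and 0.65 with probe sets averaged. Mapk12, a p38 kinase gene, was at 1035 in T+E2 cells and 1840 in untreated cells (-0.83), and at -0.41 with probe sets averaged. Kinase activity was not measured. Of 7 genes for turnover of AP-1 proteins, all measured, 0 passed 2-fold in either direction at this floor, and the median was 0.21. Trib1, which encodes a scaffold of the ubiquitin ligase COP1, was at 45.7 in T+E2 cells and 11.6 in untreated cells, under the floor there (at least 0.51), so it is not shown to lie within 2-fold. With a floor of 4 (at least 1.51) and with no floor (1.98) Trib1 was the 1 gene of this list past it. Usp28, a deubiquitinase gene, was at 201 in T+E2 cells and 276 in untreated cells (-0.45).

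Genes widely used as AP-1 targets were mostly within 2-fold, as were 9346 of all 10267 measured genes. Of 35 listed, 24 were measured, 1 past 2-fold upward, 0 downward and 23 not past it (median 0.18). The upward share was 4.17%, against 4.96% of all measured genes. Among the 23, Lif, a cytokine gene named after its value was seen, had only a lower bound (55.9 in T+E2 cells and 18.3 in untreated cells, at least 0.80), and the upward count was 2 with a floor of 4 and with no floor. The higher one was Egfr, which encodes the EGF receptor, at 3243 in T+E2 cells and 1472 in untreated cells (1.14, with 3 of 3 probe sets on the same side). Its difference was 0.66 once the span trend was removed and 0.40 when probe sets were averaged, and in both settings 0 targets passed 2-fold upward. With averaging, 2 targets passed it downward. Targets picked out after their values were seen lay on both sides of 0. Ccnd1, the cyclin D1 gene, was at 18703 in T+E2 cells and 13950 in untreated cells (0.42), and Ptgs2, the cyclooxygenase-2 gene, at 709 in T+E2 cells and 437 in untreated cells (0.70). The chemokine gene Ccl2 was at 2621 in T+E2 cells and 4237 in untreated cells (-0.69), and the protease inhibitor gene Timp1 at 4170 in T+E2 cells and 5475 in untreated cells (-0.39). The matrix protease genes Mmp3, Mmp10 and Mmp13 were under the floor on both arrays.

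**Figure D3:**
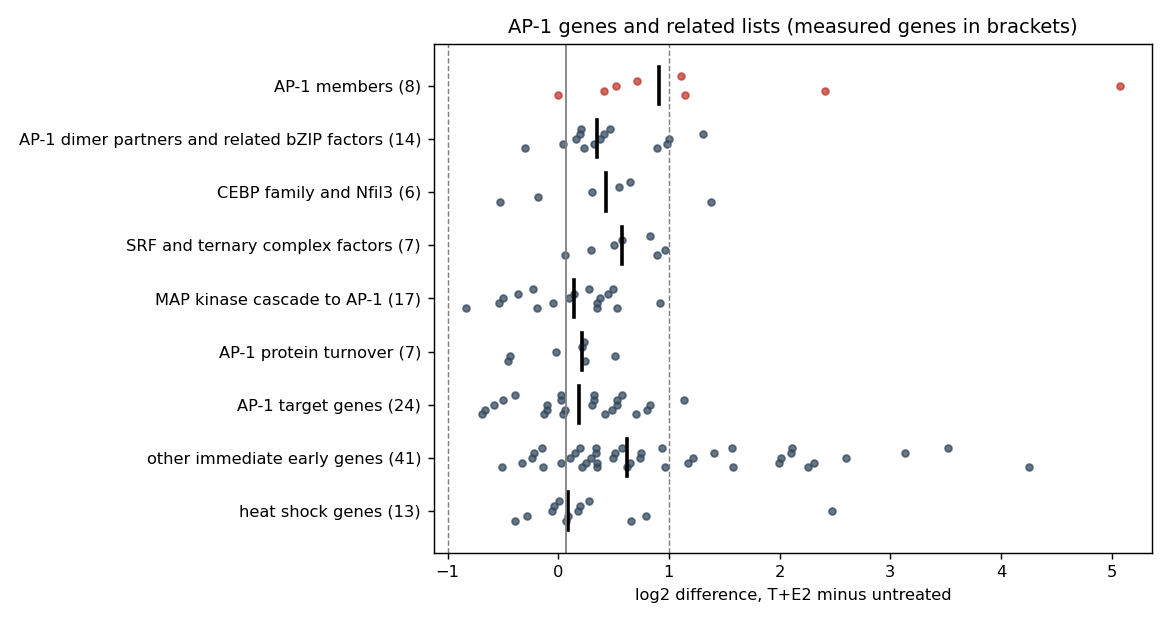
Log2 difference, T+E2 minus untreated, of each measured gene (points) in the AP-1 family (red) and in 8 related lists (dark), with the number measured in brackets. Thick bars are list medians, the grey line is the median of all measured genes (0.07) and dashed lines mark 2-fold. The other immediate early genes spread as far right as 4.25, while the AP-1 targets lie between -0.69 and 1.14.

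Many other immediate early genes were higher with T+E2, though most were not past 2-fold. Of 46 listed, 41 were measured, 15 past 2-fold upward, 0 downward and 26 not past it (median 0.62), where 4.96% of all measured genes passed it upward. This list was chosen with earlier results of these data known, so nothing is read from the gap. The 26 include, named after their values were seen, Arc (40.6 in T+E2 cells and 8.50 in untreated cells) and Trib1, which had only lower bounds, and the upward count was 17 with a floor of 4 and with no floor. Besides Ier2, Egr3, which encodes a zinc finger factor, was at 368 in T+E2 cells and 26.0 in untreated cells, under the floor there (at least 11.5-fold higher). Averaging its probe sets left Egr3 with a bound of at least 0.29 on the log2 scale, which no longer passed 2-fold. Zfp36, whose protein promotes decay of AU-rich mRNAs, was at 1421 in T+E2 cells and 162 in untreated cells (8.76-fold higher). Btg2, an antiproliferative gene, was at 1151 in T+E2 cells and 190 in untreated cells (6.04-fold higher). In the list, 6 measured genes lay below 0, among them the growth regulator gene Myc (-0.13), named after its value was seen. Among 13 measured heat shock genes, which also respond to stress, 1 passed 2-fold upward (7.69%) and 0 downward. It was Hspb1 (184 in T+E2 cells and 33.2 in untreated cells, 2.47). Of the 13, 9 lay above 0, where 55.8% of all measured genes did, and the median was 0.09. The upward count was 2 with probe sets averaged, where Hspb1 was at least 1.27 higher (log2), and 2 with the span trend removed. Hspb1 lay just above the floor in untreated cells.

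The cells carried mesenchymal markers, with 10 of 14 analysed markers measured, among them Vim, Col1a1, Pdgfra and Acta2, and a summed intensity of 210640 in T+E2 cells and 182738 in untreated cells. Tagln was the 1 marker of these past 2-fold, at 1403 in T+E2 cells and 3772 in untreated cells. Fgf10, Hoxa13, Hoxd13 and Thy1, also used to mark this mesenchyme or stroma, were under the floor on both arrays. Of 11 epithelial markers 2 were measured, with a summed intensity over the list of 583 in T+E2 cells and 337 in untreated cells. Cdh1 was at 190 in T+E2 cells and 41.4 in untreated cells (4.59-fold higher). Trp63 was at 352 in T+E2 cells and 255 in untreated cells (1.38-fold higher). Epcam, Krt5, Krt8, Krt14 and Krt18 were at background. Of 7 endothelial markers 2 were measured (summed 1333 in T+E2 cells and 1020 in untreated cells), with Pecam1 and Cdh5 at background. Flt1 was at 271 in T+E2 cells and 94.6 in untreated cells (2.87-fold higher), and Tek at 1040 in T+E2 cells and 904 in untreated cells (0.20). Of 8 leukocyte markers 2 were measured (summed 480 in T+E2 cells and 1167 in untreated cells), with Ptprc and Adgre1 at background. Lyz2 was at 369 in T+E2 cells and 1065 in untreated cells, and Cd14 at 78.7 in T+E2 cells and 70.1 in untreated cells. None of 6 skeletal muscle markers and 1 of 4 nerve and glia markers was measured. The part of these in the AP-1 differences was not tested.

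The share of probe sets at the floor or above was 42.1% on the T+E2 array and 42.9% on the untreated array. The 18 hybridization spike probe sets, added equally to both samples, differed by -0.25 to 0.09 (SD 0.12). The Gapdh control probe sets toward the 3' end exceeded those toward the 5' end by 1.11 on the T+E2 array and 1.19 on the untreated array (log2), and for actin the 3' and 5' controls were at 26376 and 9324 on the T+E2 array and 22650 and 7650 on the untreated array. The 3 probe sets of 18S ribosomal RNA were lower on the T+E2 array by 0.62 to 1.58 (log2). Their part in the AP-1 differences was not tested.

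**Figure D4:**
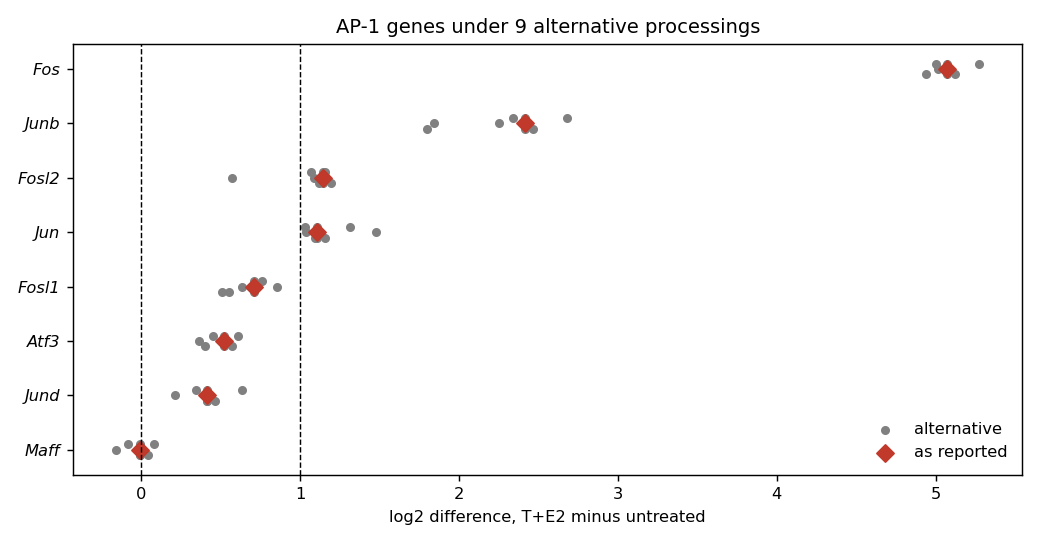
Log2 difference of the 8 measured AP-1 genes as reported (red diamonds) and under up to 9 alternative processings (grey points), with dashed lines at 0 and at 2-fold. Fos spans 4.94 to 5.27 and Junb 1.80 to 2.68, Fosl2 drops to 0.57 in 1 alternative, and Maff lies on both sides of 0.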

How the data were processed

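RNA of 1 T+E2 culture and 1 untreated culture was measured on Affymetrix mouse arrays with 45101 probe sets. The deposited values are intensity values on a linear scale, made by the authors with GCRMA, per the submitters' processing notes. GCRMA corrects background by probe sequence, quantile-normalizes and summarises probe sets, with the version not given in the sources used.

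Intensities were converted to log2 with no further scaling. Values under a floor of 5 were set to it, and untreated was subtracted from T+E2. Genes with both arrays under the floor were left out as not measured, and with 1 array under it the difference is a lower bound. Each gene was represented by its probe set of highest mean log2. Names came from the platform annotation, updated through the RefSeq table of GRCm38.p6. Of all probe sets, 34945 named 1 gene, 932 several (left out), 9160 none and 64 were controls.

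The members and lists were chosen with earlier results of these data known, so nothing is read from a gap between a list and all measured genes. Named genes are the members, up to 4 genes per list at least 2-fold different (otherwise the 2 largest) and the 3 nearest to Fos. The 2-fold call was run on simulated arrays with small noise and changes only in genes well above the floor. Each simulated array alone was given noise with the SD of the spike differences between arrays (0.12). That run checks the code, and does not show how far 2 cultures differ or how low genes behave. Python 3.11.15, pandas 2.3.3 and statsmodels 0.14.6 were used. The alternatives were floors of 4, 6 and none, log2 of the intensity plus 32, the mean of all probe sets, 2 centrings, and lowess trends (fraction 0.3) with level or genomic span removed. With 1 array per group no test was possible, and precision is limited by that number.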

Additional observations from a re-analysis of the deposited data

How the results depend on the processing

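The count of members at least 2-fold higher was 4 in 8 of 9 alternatives and 3 when probe sets were averaged, where Fosl2 was at 0.57, and no member was 2-fold lower in any. The members' median was 0.71 with no floor and 0.51 with log2 of the intensity plus 32, where Fosb entered at background, and 0.57 for averaged probe sets, which draws in probe sets at background. In the other 6 alternatives it moved by less than the SD of the spike differences. Fos (4.94 to 5.27), Junb (1.80 to 2.68) and Jun (1.03 to 1.48) stayed at least 2-fold higher in all 9. Fosl1 was not measured when probe sets were averaged and was at 0.51 to 0.85 in the other 8, and Atf3 (0.36 to 0.61) and Jund (0.21 to 0.63) stayed under 2-fold and above 0 in all 9. Maff (-0.16 to 0.08) lay above 0 in 2 of 9, so it has no direction. Fos had the largest difference in 7 of 9 alternatives, had 1 gene above it with a floor of 4 and 2 with no floor. No paired analysis was possible because each group has 1 array. Signal over background limits Fosb, Fosl1 and Junb most, whose untreated levels lay under or near the floor.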
